A study of Homo sapiens with 12 samples.

Results

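AMP-activated protein kinase (AMPK) and the genes around it were examined for open chromatin in MIAPaCa2 cells, an established line of pancreatic ductal adenocarcinoma. The 10 genes were the catalytic subunits PRKAA1 and PRKAA2, the scaffold subunits PRKAB1 and PRKAB2, the nucleotide-binding subunits PRKAG1, PRKAG2 and PRKAG3, the activating kinases STK11 and CAMKK2, and the coactivator PPARGC1A. They are 10 of 19970 protein-coding genes on chromosomes 1 to 22 and X in the RefSeq gene table for GRCh38. Every peak that overlapped the span of one of these genes, extended by 5 kb on both sides, was counted as belonging to it. Peaks of the 12 libraries that overlapped by at least 1 bp were merged into regions, and 107 of 178040 such regions lay at the 10 genes.

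Open chromatin was profiled by ATAC-seq, a method that uses a transposase to place adapters into accessible DNA. Each of 4 groups had 3 libraries: parental cells left untreated, parental cells given the lactate dehydrogenase A (LDHA) inhibitor oxamate, LDHA inhibitor resistant cells left untreated, and LDHA inhibitor resistant cells given oxamate. All 4 groups shared the Miapaca2 line, the serum-containing DMEM and the nuclei preparation. The resistant cells were the survivors of prolonged growth in oxamate, so they represent 1 selected population of 1 line, and no label says that replicates came from separate cultures. The p-values therefore measure the spread between these libraries, which may be technical.

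AMPK is a complex of a catalytic, a scaffold and a nucleotide-binding subunit that becomes active when AMP and ADP accumulate at the expense of ATP. STK11 (also called LKB1) and the calcium-responsive kinase CAMKK2 phosphorylate its catalytic subunit, and active AMPK restrains lipid and protein synthesis and favours fuel uptake, autophagy and mitochondrial function. PPARGC1A encodes PGC-1α, a coactivator of mitochondrial biogenesis that AMPK can phosphorylate. Blocking LDHA hinders the regeneration of NAD+ in glycolysis, which places these genes near the metabolic step that oxamate inhibits.

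Some properties of the libraries touch every result. The lists held between 45748 and 62414 peaks, and peaks covered 13.8 to 25.5 Mb in parental and 21.3 to 33.7 Mb in resistant libraries (difference 7.26 Mb, p = 0.005 by two-sided exact permutation, which cannot give a smaller p here). The shortest peak of a list, used as a measure of mean fragment length, was 67 to 87 bp in parental and 94 to 124 bp in resistant libraries, so fragment length and phenotype cannot be told apart. The relative number of fragments recovered from the lists was lower in resistant libraries (1 to 1.85 against 1.33 to 2.77, exact permutation p = 0.035). Read counts and the absolute depth are not given in the lists. Markers were read from peaks within 1 kb of either end of a gene. VIM, a mesenchymal gene that this line is known to express, had one in 12 of 12 libraries, the keratin genes KRT8, KRT18 and KRT19 in 12, 12 and 10, and EPCAM in 1, while the KRT8 start itself lay under a peak in 2. Immune (PTPRC, CD3E) and endothelial (PECAM1, CDH5) genes had none in any library (0 of 12), and the acinar genes PRSS1 and CPA1 in 1 each. The windows of PECAM1 and CDH5, extended by 5 kb, did hold a peak in 12 of 12 libraries.

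The 10 genes had 15 annotated start sites, and 8 of these lay under a peak in 12 of 12 libraries, 3 in some libraries and 4 in none. The sequences before 7 of the start sites are given because they set starts that were open in every library beside starts that were not. Each is the 250 bases before the start site, read 5′ to 3′ on the transcribed strand, from RefSeq promoters of GRCh38.p14. Capitals mark every match, on either strand, to the GC box GGGCGG, the CCAAT box CCAAT, the E-box CACGTG, the cAMP response element TGACGTCA, the AP-1 site TGANTCA, the ETS site CCGGAAG or the NRF1 site GCGCATGCG, and adjoining matches run together. PPARGC1A distal start (chr4:24472906-24473155, minus strand) was open in 12 libraries and its proximal start (chr4:23881102-23881351, minus strand) in 0. Distal and proximal name the 2 PPARGC1A starts annotated here by their order along transcription, and no other start of that gene was examined. PRKAG2 start 3, counted along transcription (chr7:151736264-151736513, minus strand) was open in 12 libraries and start 2 (chr7:151814860-151815109, minus strand) in 0. The STK11 start (chr19:1205528-1205777, plus strand) was open in 12, the PRKAA2 start (chr1:56645064-56645313, plus strand) in 8 and the PRKAG3 start (chr2:218831804-218832053, minus strand) in 0.
PPARGC1A distal start: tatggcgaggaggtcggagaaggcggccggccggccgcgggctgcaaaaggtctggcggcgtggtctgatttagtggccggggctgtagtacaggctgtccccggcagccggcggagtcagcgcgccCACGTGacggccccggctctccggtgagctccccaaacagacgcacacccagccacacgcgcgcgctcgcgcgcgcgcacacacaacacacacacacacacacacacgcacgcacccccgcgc
PPARGC1A proximal start: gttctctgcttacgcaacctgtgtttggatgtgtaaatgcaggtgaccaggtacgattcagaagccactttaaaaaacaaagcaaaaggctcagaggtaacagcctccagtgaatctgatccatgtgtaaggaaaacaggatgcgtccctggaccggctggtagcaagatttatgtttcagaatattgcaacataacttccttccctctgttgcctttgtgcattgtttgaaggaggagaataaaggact
PRKAG2 start 3: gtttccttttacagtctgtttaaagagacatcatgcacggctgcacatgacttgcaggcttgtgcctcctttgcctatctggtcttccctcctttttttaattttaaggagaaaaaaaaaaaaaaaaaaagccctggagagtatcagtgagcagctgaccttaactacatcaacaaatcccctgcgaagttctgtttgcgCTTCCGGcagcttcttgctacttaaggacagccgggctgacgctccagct
PRKAG2 start 2: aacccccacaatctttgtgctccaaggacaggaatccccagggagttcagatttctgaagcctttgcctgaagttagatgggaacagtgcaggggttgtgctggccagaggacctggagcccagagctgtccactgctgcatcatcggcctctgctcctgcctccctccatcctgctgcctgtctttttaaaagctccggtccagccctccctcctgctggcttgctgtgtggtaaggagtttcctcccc
STK11 start: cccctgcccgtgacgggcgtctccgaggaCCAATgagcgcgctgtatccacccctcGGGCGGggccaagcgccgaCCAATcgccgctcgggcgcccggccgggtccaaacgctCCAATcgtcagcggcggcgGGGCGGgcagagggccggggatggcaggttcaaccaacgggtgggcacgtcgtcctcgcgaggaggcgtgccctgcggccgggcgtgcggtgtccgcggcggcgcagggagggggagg
PRKAA2 start: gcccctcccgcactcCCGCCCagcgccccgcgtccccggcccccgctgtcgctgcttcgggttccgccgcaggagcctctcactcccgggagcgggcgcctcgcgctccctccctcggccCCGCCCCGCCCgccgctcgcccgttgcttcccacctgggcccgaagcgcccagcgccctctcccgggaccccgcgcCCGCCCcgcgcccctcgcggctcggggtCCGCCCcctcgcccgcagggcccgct
PRKAG3 start: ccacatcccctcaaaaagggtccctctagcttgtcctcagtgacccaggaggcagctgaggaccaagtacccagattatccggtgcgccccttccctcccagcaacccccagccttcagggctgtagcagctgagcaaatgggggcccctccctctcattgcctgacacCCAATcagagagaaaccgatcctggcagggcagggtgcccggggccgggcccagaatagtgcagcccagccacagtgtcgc

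Base composition was set beside that of all annotated starts. Over 34961 start sites, the 10567 under a peak in 12 libraries had a median of 66.0% G + C and 22 CpG in the 250 bases before the start, and the 18889 under a peak in no library had 49.2% and 3. The distal PPARGC1A start had 70.8% G + C and 33 CpG, and the proximal start had 44.0% and 4. PRKAG2 start 3 was open in 12 libraries with 45.2% G + C and 6 CpG, below the lower quartile of 59.6% for open starts. PRKAG3, with 62.8% G + C, had 6 CpG and no peak.

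Motif matches are descriptions of these letters and not of binding. A GC box, which 42.7% of all windows of this length and 71.5% of those open in 12 libraries hold, matched 8 times before the starts of PRKAA1 and CAMKK2, 5 times before PRKAA2 and 2 times before STK11. STK11 also had 3 CCAAT boxes (32.0% of all windows hold at least 1). The E-box (6.35% of all windows) matched once, before the distal PPARGC1A start, and the ETS site (8.52%) matched before PRKAB1, PRKAG1 and PRKAG2 start 3. None of the 15 windows of the 10 genes held the cAMP response element (1.65% of all windows), the AP-1 site (6.54%) or the NRF1 site (1.64%). Sequence outside these windows, at PPARGC1A as elsewhere, was not searched.

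**Figure D1:**
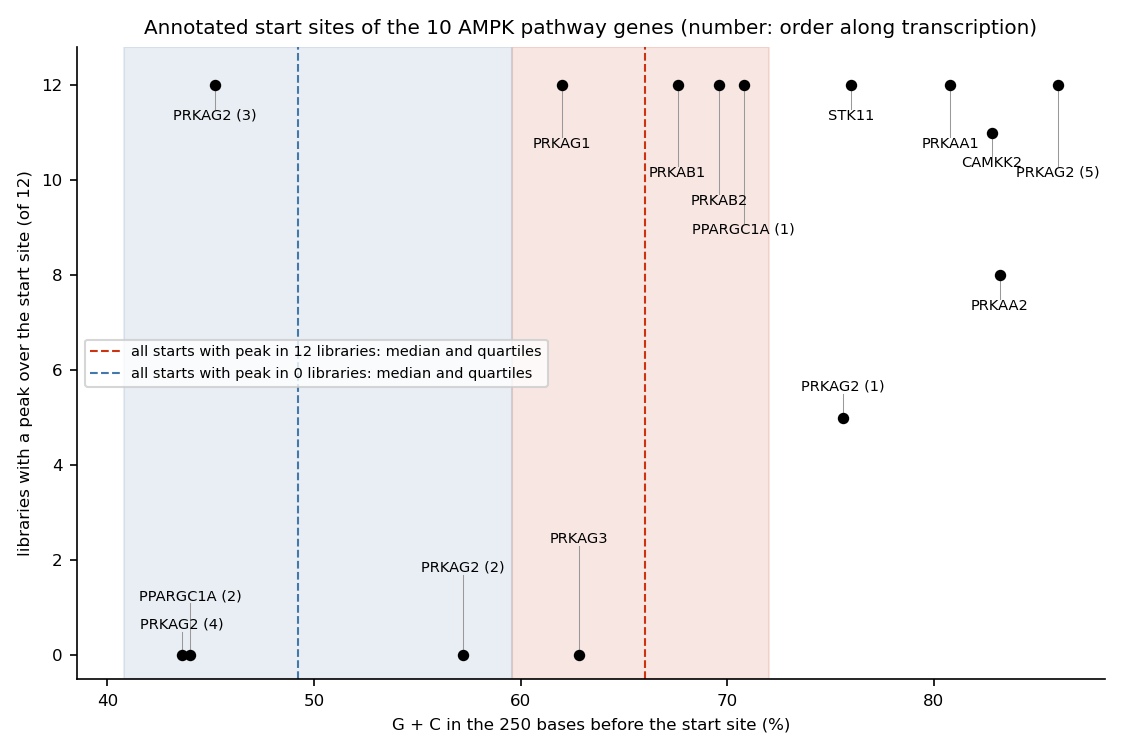
Each point is 1 of the 15 annotated start sites, with G + C in the 250 bases before it (%) against the number of libraries, of 12, with a peak over it. Dashed lines and bands give the median and quartiles over all starts open in 12 libraries (66.0%) and in 0 libraries (49.2%), and PRKAG2 start 3 stands at 45.2% with a peak in 12 libraries.

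Of the 107 regions at the 10 genes, 52 (48.6%) were called in both parental and resistant libraries, 21 (19.6%) in parental alone and 34 (31.8%) in resistant alone. Of all regions, 33.8% were called in both, 42.4% in parental alone and 23.7% in resistant alone. By number of libraries, 23 (21.5%) were called in 12 libraries, 51 (47.7%) in 1 library and 33 in between, against 13.6% and 59.5% of all regions. Every gene except PRKAG3 had a peak in 12 of 12 libraries, and 10 of 11 regions over an own start were called in 12. Only 1 of 11 regions past a gene end was called in 12, and it lies over the start of TTC33, the gene next to PRKAA1. All 10 genes passed the filter of a peak in at least 3 libraries, and 9 passed the filter of a peak in 12.

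The catalytic subunits differed in how open they were. PRKAA1 (chr5:40759389-40798374) had 48.0 covered bases per kb of its window on average, and PRKAA2 (chr1:56645314-56715335) had 12.1. The region over the PRKAA1 start (chr5:40797408-40799042) was called in 12 libraries, with the authors' fold enrichment between 4.72 and 7.48. PRKAA1 had 2318, 2296 and 2600 covered bases in untreated parental libraries and 1514, 1821 and 1846 in treated parental libraries. In resistant libraries it had 2450, 2416 and 2993 without and 2940, 2546 and 2461 with oxamate. The treated parental libraries were the lowest and overlapped neither the untreated parental nor the treated resistant ones. Of the mean of 2350 covered bases in the PRKAA1 window, 1210 lay in the TTC33 start region (604 to 1573 over the 12 libraries), which cannot be assigned to PRKAA1, so the 48.0 bases per kb and these group values count both genes.

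PRKAA2, the catalytic subunit most often described in muscle and heart, had 1160, 1414 and 361 covered bases in untreated and 175, 226 and 337 in treated parental libraries. Resistant libraries had 1648, 1234 and 1469 without and 1424, 782 and 1436 with oxamate. All 3 treated parental libraries were below all others. Because each library pools many cells, fewer cells with the site open and less open DNA per cell cannot be told apart. The region over its start (chr1:56644689-56646274), which also holds the start of the non-coding gene LOC101929935, was called in 3 of 3 untreated parental, 1 of 3 treated parental and 6 of 6 resistant libraries. The start base itself lay under a peak in 2 of 3, 0 of 3 and 6 of 6. In the 1 treated parental library with a call, the peak was 112 bp long and ranked at 94.8% of its list from the top by -log10 q, so it was among the weakest peaks. In untreated parental libraries the start peak was 189 to 1016 bp long and ranked between 38.2% and 68.0%. In resistant libraries the start peak was 663 to 1298 bp long and ranked between 60.6% and 73.9%. A second region inside the gene (chr1:56688563-56688925, 43430 bp downstream of the start) was called in 12 of 12 libraries.

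The scaffold subunits each had 1 region in 12 libraries, over the start. At PRKAB1 (chr12:119667952-119681619), it was chr12:119667505-119668497, shared with the antisense gene PRKAB1-AS1, with fold enrichment from 7.59 to 10.4 and ranks between 1.64% and 4.90%. At PRKAB2 (chr1:147155106-147172470), it was chr1:147172059-147173403, shared with the start of CHD1L, and it was the only region of the window. PRKAB2 had 889 to 1170 covered bases over the 12 libraries, the narrowest range of the 10 genes relative to its mean (993 ± 96.0, SD, n = 12). These starts were among the strongest peaks of every list, at 12.3% from the top or better.

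The nucleotide-binding subunits ranged from nearly closed to the gene with the most covered bases in total. PRKAG1 (chr12:49002274-49018776) had 1 region in 12 libraries, over its start (chr12:49018020-49019152), with fold enrichment of 5.07 to 7.59. PRKAG3 (chr2:218822308-218831803), the subunit typical of glycolytic skeletal muscle, had no peak over its start in any library. Its window held 123 covered bases in 1 untreated parental library, 747 and 418 in 2 untreated resistant libraries and 597 and 217 in 2 treated resistant libraries, and 0 in the other 7. These peaks ranked between 81.4% and 99.2% of their lists from the top.

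PRKAG2 (chr7:151556127-151877115) held 58 regions in its 331.0-kb window, and 13 of them were called in 12 libraries. Per kb it had 38.6 covered bases, below STK11 (58.6), PRKAG1 (48.9), PRKAA1 (48.0) and PRKAB1 (39.8). The gene has 5 annotated start sites. Regions in 12 libraries lay over start 1 (chr7:151875196-151877733), start 3 (chr7:151735718-151736935) and start 5 (chr7:151631626-151632701). Neither start 2 nor start 4 lay under a peak in any library. The best-ranked region of the gene was chr7:151753976-151754631, inside the gene and 122812 bp downstream of start 1, with fold enrichment between 6.70 and 11.4. The PRKAG2 map shows 19 to 29 peaks per library, with 13 regions shared by all libraries and 31 called in 1 library.

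PRKAG2 start 1 was covered in 3 of 3 untreated and 2 of 3 treated resistant libraries and in 0 of 6 parental libraries, although the region around it was called in all 12. In each parental library the region was split into 2 or 3 peaks that left the start base bare, and in 4 of 6 resistant libraries it was 1 peak of 2384 to 2436 bp. Fisher's exact test (two-sided) on start bases, chosen after the values were seen, gave p = 0.0152 and an adjusted p of 0.0607 (877 starts tested, range over the alternatives for presence by phenotype 0.0607 to 0.726). Among those 877 starts, 24.5% had an unadjusted p under 0.05 with more resistant libraries, so this start is 1 of many. The region also holds the start of PRKAG2-AS1.

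**Figure D2:**
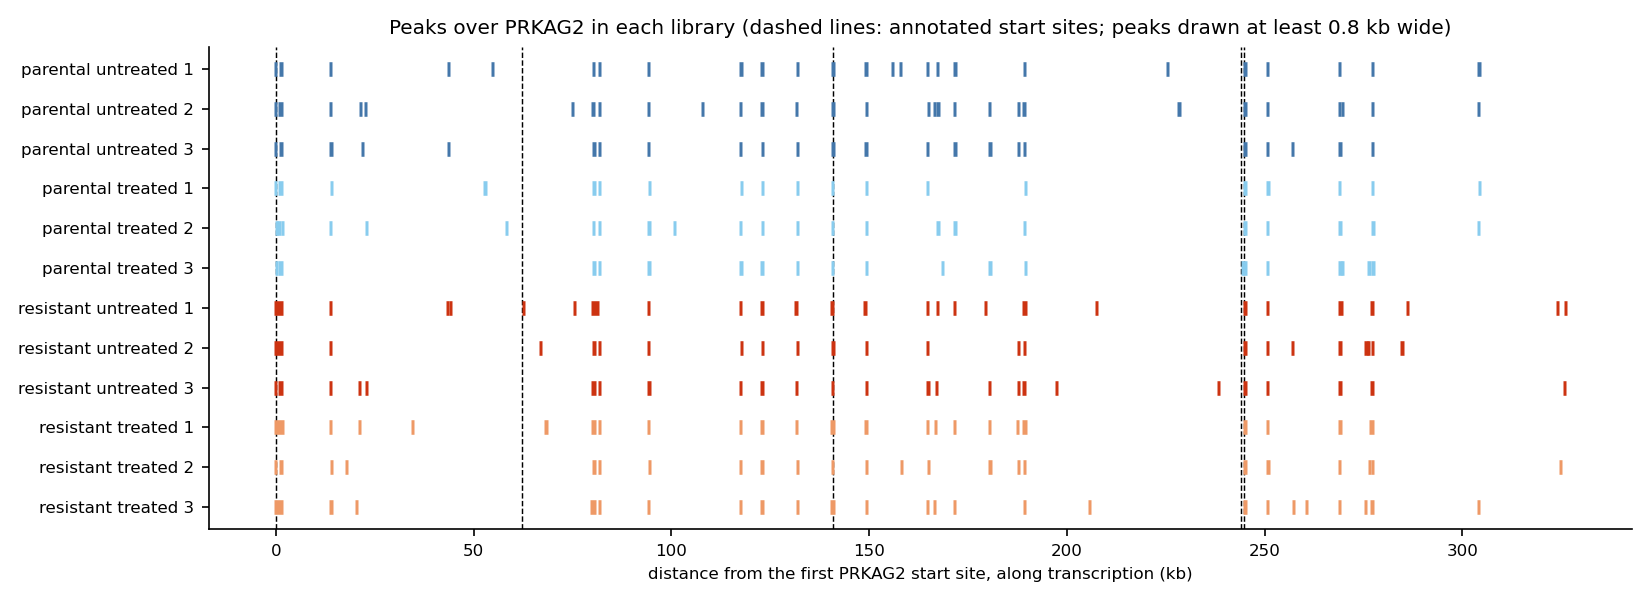
Peaks over PRKAG2 in each of the 12 libraries (rows, coloured by group) by distance from the first start site along transcription (kb), with dashed lines at the 5 annotated start sites. Peaks at 13 regions recur in every row, and no peak covers start 2 or start 4 in any library.

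The activating kinases were open at their starts. STK11 (chr19:1205778-1228431), the tumour suppressor kinase upstream of AMPK, had its start region (chr19:1205467-1206047) in 12 libraries at ranks between 1.60% and 4.38%, with fold enrichment from 6.94 to 10.8. A further region (chr19:1223064-1223410, 17459 bp downstream) was also called in 12. Its covered bases were 2081, 2514 and 1173 in untreated and 954, 1349 and 1098 in treated parental libraries. Resistant libraries had 2751, 1284 and 3216 without and 2096, 2504 and 1935 with oxamate. The treated resistant libraries were above the treated parental ones, and the untreated groups overlapped.

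CAMKK2 (chr12:121237692-121297819) had 1 region in 12 libraries, a 2394-bp region over its start (chr12:121295577-121297970), and the start base lay under a peak in 11 of 12. Covered bases ranged from 1135 in a treated parental to 3329 in a treated resistant library, and all groups overlapped. The best CAMKK2 peak ranked at 24.0% to 39.0% from the top in parental and at 16.9% to 29.0% in resistant libraries.

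PPARGC1A (chr4:23792021-24472905) was the least open of the 10 genes per length, with 1.01 covered bases per kb of its 690.9-kb window. The only region in 12 libraries was at the distal start (chr4:24472693-24473666), which it shares with LOC124900681. There the fold enrichment was 3.90 to 4.48 in untreated and 3.06 to 4.70 in treated parental libraries, and 4.80 to 5.80 in untreated and 5.31 to 5.81 in treated resistant libraries. All 6 resistant values were above all 6 parental values. Of the 23 regions of the 10 genes called in 12 libraries, this 1 separated in that way, beside 2.80% of all such regions, a count made after the values were seen. The fold is set against the background of its own library, and the part of depth and fragment length in this difference was not tested. By rank within the list, which ranged from 40.4% to 94.8% in parental and from 30.6% to 52.6% in resistant libraries, the groups overlapped. The peak was 197 to 413 bp long in parental and 392 to 974 bp long in resistant libraries.

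**Figure D3:**
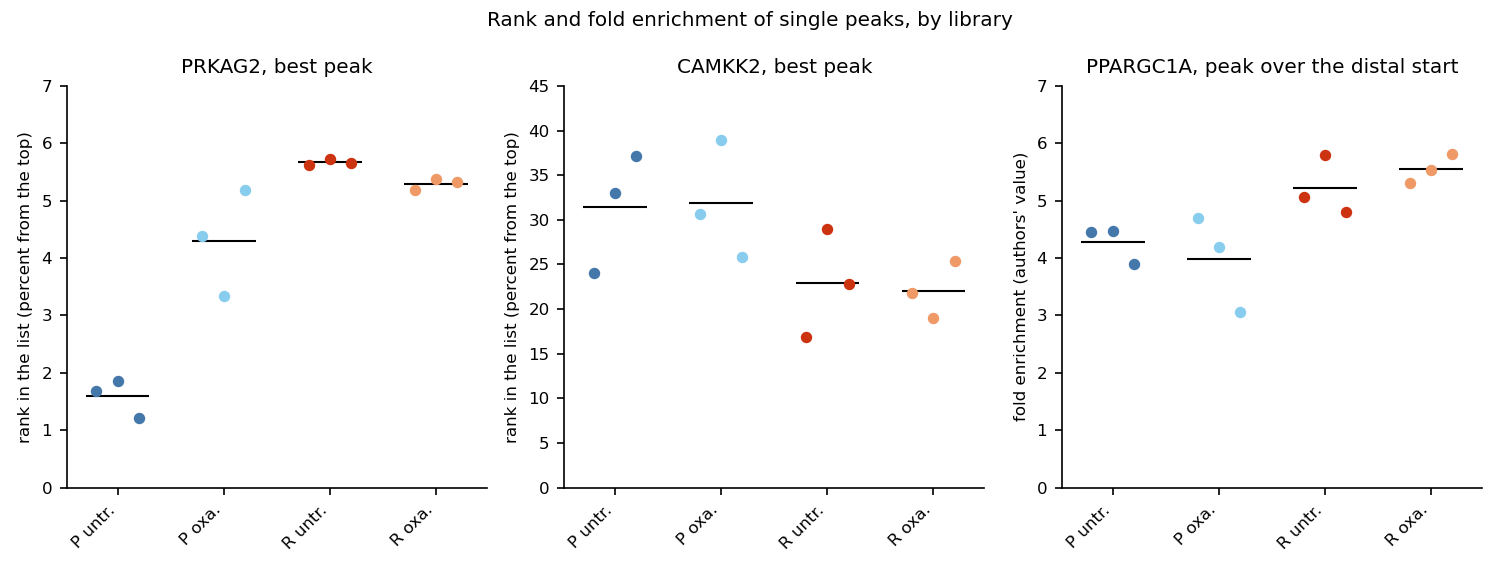
Left and middle, rank of the best peak of PRKAG2 and CAMKK2 in its list (percent from the top, lower is stronger), and right, the authors' fold enrichment at the distal PPARGC1A start, by group (P, parental; R, resistant; untr., untreated; oxa., oxamate). Points are libraries and bars are means of 3. The PRKAG2 peak ranks between 1.22% and 1.86% in untreated parental and between 5.63% and 5.73% in untreated resistant libraries.

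Resistant cells were compared with parental cells first, by the bases that peaks covered in each gene window, with treatment as a stratum. None of the 10 genes passed an adjusted p under 0.05 (two-sided exact permutation test, Benjamini-Hochberg over 16971 genes), where 11.8% of all genes tested were called higher in resistant cells. At an unadjusted p under 0.05, 4 of 10 genes were higher (PRKAA1, PRKAA2, PRKAG1 and PRKAG2), beside 42.9% of all genes. The median difference was 454 bp for the 10 genes and 309 bp for all genes, and 9 of 10 genes were higher, as were 91.7% of all genes. Read against these shares, the 10 genes did not stand out from the rest of the genome.

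PRKAG2 and PRKAA2 had the smallest p. PRKAG2 averaged 14797 ± 3009 bp (SD, n = 6) in resistant and 10787 ± 2388 bp (SD, n = 6) in parental libraries, a difference of 4010 bp (exact permutation p = 0.01, adjusted p = 0.0527). PRKAA2 averaged 1332 ± 300 bp in resistant and 612 ± 533 bp in parental libraries, a difference of 720 bp (exact permutation p = 0.01, adjusted p = 0.0527). Adjusted p was 0.0758 for PRKAA1 (difference 569 bp) and 0.0829 for PRKAG1 (522 bp), both by exact permutation. Differences given for PRKAA1, here and below, include the TTC33 start region and so count both genes. PRKAA1 was lower in resistant cells once bases were divided by all bases the library covered. Most of the PRKAG1 difference lay past the gene end, in chr12:48999398-49000199. Peaks there covered 106 to 768 bp in 3 of 3 untreated and 2 of 3 treated resistant libraries. In parental libraries they covered 92 to 180 bp, in 2 of 3 untreated and 1 of 3 treated ones. These peaks ranked between 55.7% and 98.9% from the top. Over the PRKAG1 start itself, peaks covered 1022 to 1073 bp in resistant and 662 to 1063 bp in parental libraries. For STK11 (769 bp), PRKAG3 (309 bp), PRKAB1 (250 bp), PPARGC1A (379 bp) and CAMKK2 (385 bp), adjusted p lay between 0.137 and 0.369, and on the divided scale PRKAB1 and CAMKK2 were lower. PRKAB2 differed by -29.2 bp (adjusted p = 0.706 by exact permutation), which turned positive within the gene span alone.

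Per Mb that each library covered, 6 of 10 genes and 48.4% of all genes were higher in resistant cells. On that scale 0 of 16971 genes passed the adjusted test, and the smallest adjusted p of the 10 genes was 0.103 by exact permutation. Calls also depended on single libraries. Over all genes, 9 of the 12 fits that left out 1 library called 0 genes, in place of 2011, and the other 3 called 1695 to 5079. With all libraries, every called gene had the smallest p of 0.005 and the same adjusted p of 0.0422, by exact permutation. Genes at the smallest p pass or fail together, so these counts move in steps. They do not measure how far any 1 gene depends on a library. Leaving out untreated resistant replicate 2 gave 4 called genes, leaving out treated resistant replicate 2 gave 3, and leaving out untreated parental replicate 2 gave 1. The adjusted p of PRKAG2 was 0.0335 without untreated resistant replicate 2 (range over its alternatives 0.0329 to 1) and that of PRKAA2 was 0.0416 (0.0416 to 0.921), both by exact permutation. With stronger peaks alone (-log10 q of 3 or more), PRKAA1, PRKAG2, STK11 and PPARGC1A were called, 4 of 9 genes tested, as were 6400 of 15436 genes. Within 1 kb of annotated starts, a window chosen after the values were seen, PPARGC1A was called with 441 more bp in resistant cells (adjusted p = 0.0361 by exact permutation, range over its alternatives 0.0293 to 0.875), as were 2328 of 10597 genes.

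**Figure D4:**
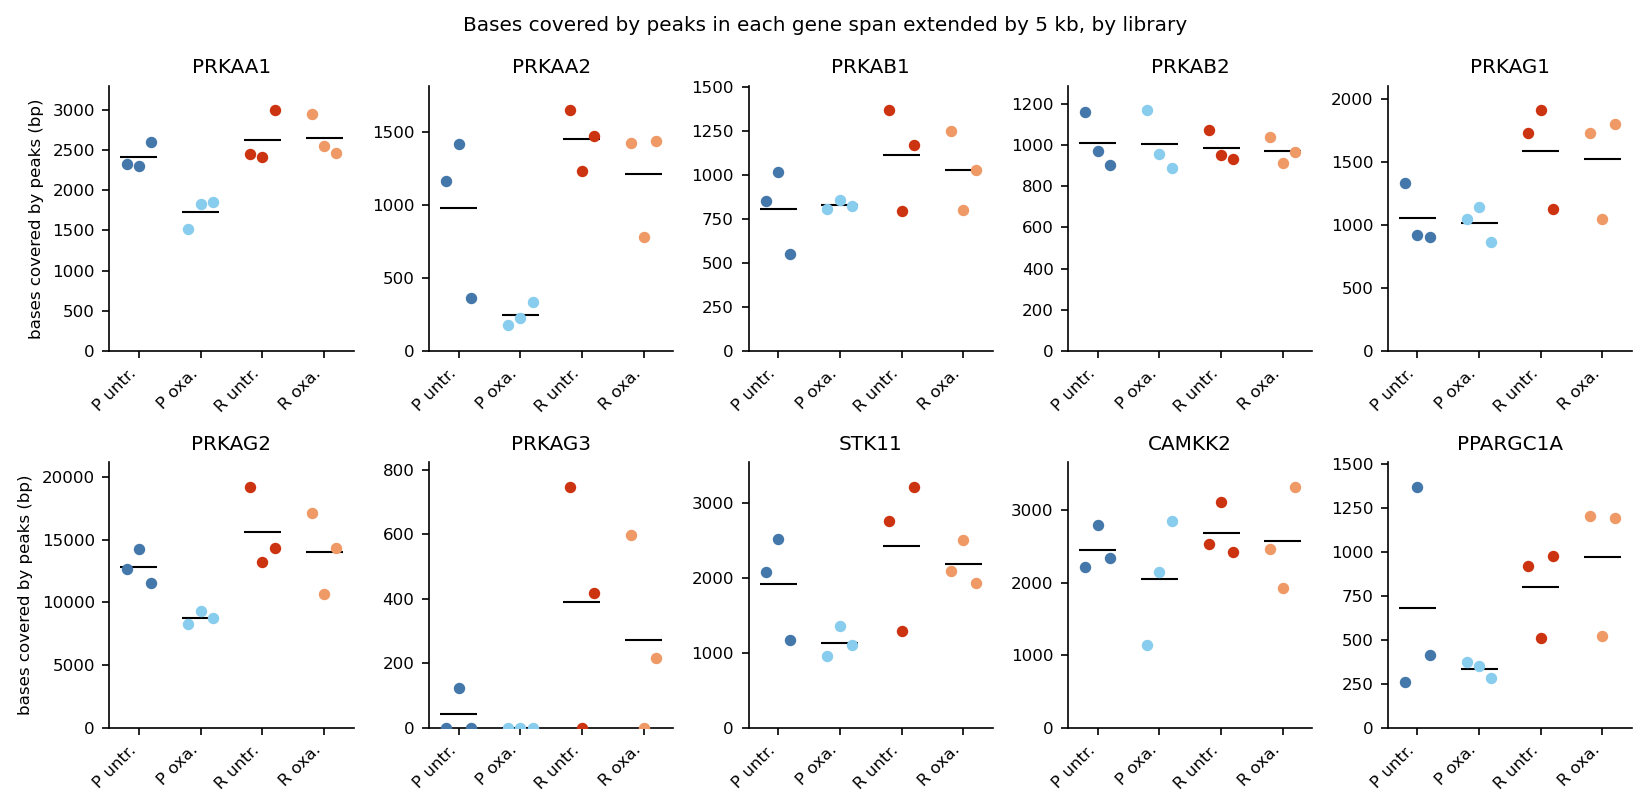
Bases covered by peaks (bp) in each gene span extended by 5 kb, 1 panel per gene, by group (P, parental; R, resistant; untr., untreated; oxa., oxamate). Points are libraries, bars are means of 3 and each axis starts at 0. The treated parental libraries of PRKAA2 lie between 175 and 337 bp, below every other library of that gene.

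**Figure D5:**
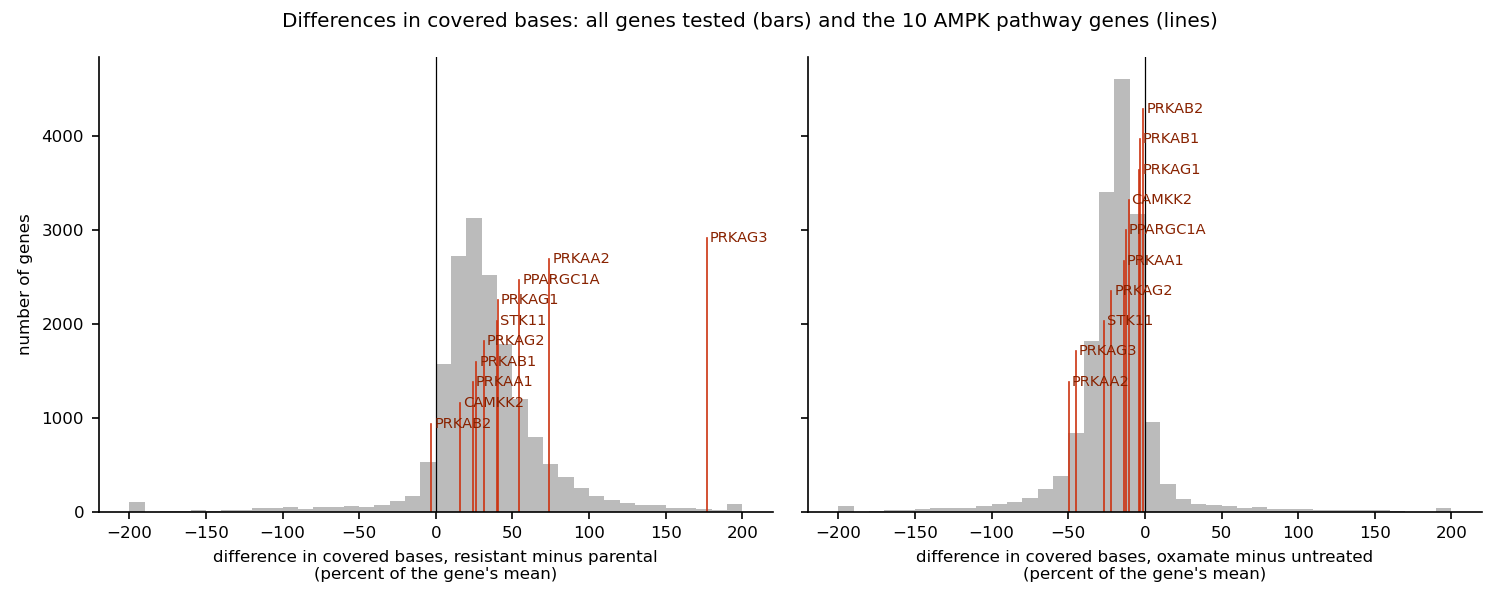
Difference in covered bases, as a percent of each gene's mean, for all 16971 genes tested (grey bars, number of genes) and for the 10 genes (red lines), by phenotype (left) and by treatment (right). The 10 genes lie within the spread of all genes, with medians of 35.8% against 28.8% by phenotype and of -13.1% against -17.3% by treatment. On the scale of bases per Mb covered, PRKAA1, PRKAB1 and CAMKK2 turn to the other side by phenotype, and 6 of 10 genes by treatment.

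Oxamate was compared with no treatment in the same way, with phenotype as a stratum. All 10 genes had lower mean covered bases with oxamate, as had most genes (11.1% of all were higher). Per Mb that each library covered, this did not hold, since PRKAA1, PRKAB1, PRKAB2, PRKAG1, CAMKK2 and PPARGC1A (6 of 10 genes) and 52.6% of all genes were then higher with oxamate. None passed an adjusted p under 0.05 by exact permutation (0% of all genes did), and 0 of 10 passed unadjusted, where 15.0% of all genes were lower. The median difference was -174 bp for the 10 genes and -180 bp for all genes. PRKAA2 had the smallest p, with 730 ± 583 bp (SD, n = 6) with and 1214 ± 453 bp (SD, n = 6) without oxamate (difference -484 bp, exact permutation p = 0.06, adjusted p = 0.313). PRKAG2 differed by -2790 bp (adjusted p = 0.344) and PRKAA1 by -324 bp (adjusted p = 0.386), both by exact permutation.

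Groups were also set side by side, 3 libraries against 3, where an exact test cannot go below p = 0.1 and none was run. In parental cells, PRKAA1, PRKAA2 and PRKAG2 had every treated library below every untreated one, 3 of 10 genes beside 36.0% of all genes. In resistant cells, 0 of 10 genes had treated libraries wholly below untreated ones, beside 4.99% of all genes. Untreated resistant libraries were wholly above untreated parental ones for 0 of 10 genes, beside 18.2% of all. With oxamate in both, PRKAA1, PRKAA2, PRKAG2, STK11 and PPARGC1A had every resistant library above every parental one, 5 of 10 genes beside 50.3% of all. The first and last of these comparisons share the treated parental libraries, which had the fewest covered bases of the 4 groups (13.8 to 19.4 Mb).

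The difference of the treatment differences between the 2 phenotypes was tested with treatment labels permuted within each phenotype. Its p is therefore set against no treatment difference in either phenotype, and not against an equal difference in both. On covered bases 0 of 10 genes passed the adjusted test (0% of all genes) and 0 of 10 the unadjusted one, where 4.30% of all genes had a positive difference. PRKAA1 came nearest, with a treatment difference of -678 bp in parental and 29.3 bp in resistant cells (exact permutation p = 0.06, adjusted p = 0.831). In its window, the TTC33 start region had 1160 to 1342 bp in untreated and 604 to 1125 bp in treated parental libraries. In resistant libraries that region had 1330 to 1573 bp without and 1190 to 1332 bp with oxamate, so the PRKAA1 values count both genes.

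The rank of the best peak by -log10 q was compared for the 9 genes with a peak in 12 libraries. By phenotype 0 of 9 genes passed the adjusted test by exact permutation (0% of 14119 genes). At an unadjusted p under 0.05, PRKAG2 was ranked weaker in resistant cells (1 of 9 genes beside 7.42% of all) and CAMKK2 stronger (1 of 9 beside 18.0%). The best PRKAG2 peak ranked at 1.69%, 1.86% and 1.22% in untreated parental libraries, at 4.39%, 3.34% and 5.18% in treated parental ones, at 5.63%, 5.73% and 5.66% in untreated resistant ones and at 5.19%, 5.38% and 5.33% in treated resistant ones. All 6 resistant libraries had this peak further from the top than all 6 parental ones, with the nearest at 5.19% and 5.18%. The difference was 2.54 percentage points on average (exact permutation p = 0.005, adjusted p = 0.0697). The same gene thus had more covered bases and a weaker rank of its best peak in resistant cells, neither of which passed the adjusted test. This is a place within each list and not the strength of the peak. Its fold with oxamate was 9.51 to 10.3 in resistant and 6.70 to 8.42 in parental libraries. Without oxamate the order was the other way, at 8.79 to 9.79 and 10.2 to 11.4. CAMKK2 ranked at 22.5% in resistant and 31.6% in parental libraries (difference -9.12 points, exact permutation p = 0.02, adjusted p = 0.119). When peaks were ranked by fold in place of -log10 q, the difference shrank to 0.824 points for PRKAG2 (adjusted p = 0.551) and to -0.374 points for CAMKK2 (adjusted p = 0.957), both by exact permutation, and the share of all genes ranked weaker in resistant cells went from 36.3% to 53.2%. PPARGC1A, at 40.3% against 51.4%, and PRKAB2, at 3.11% against 5.79%, had adjusted p of 0.214 and 0.187 by exact permutation.

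With oxamate, 0 of 9 genes passed the adjusted test of rank (0% of all) and 0 of 9 the unadjusted one, where 9.16% of all genes were ranked weaker. For the difference between phenotypes in that effect, 0 of 9 passed after adjustment (0% of all) and PRKAG2 passed before it (1 of 9, beside 3.63% of all in this direction). The rank of its best peak differed by 2.71 points with oxamate in parental cells and by -0.371 points in resistant cells (difference of differences -3.08, exact permutation p = 0.005, adjusted p = 0.851). The fold enrichment of that peak was 10.2 to 11.4 and 6.70 to 8.42 in untreated and treated parental libraries, and 8.79 to 9.79 and 9.51 to 10.3 in untreated and treated resistant libraries.

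Single regions were compared by presence. Of the 107 regions, 10 were called in 5 to 7 libraries and could reach an unadjusted p under 0.05 in a Fisher's exact test of 6 against 6 libraries. By phenotype 0 of 10 passed after adjustment (0% of 9507 regions) or before it (11.4% of all), and by treatment 0 of 10 passed after (0% of all) or before it (1.39% of all). The smallest p by phenotype was 0.0801 by Fisher's exact test, for chr19:1218104-1218268 inside STK11, called in 5 of 6 parental and 1 of 6 resistant libraries.

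A pair of regions was called in 3 of 3 libraries of 1 group and 0 of 3 of another. Inside STK11, 15516 bp downstream of its start, chr19:1220761-1221828 was called in 3 of 3 untreated parental, 0 of 3 treated parental, 2 of 3 untreated resistant and 3 of 3 treated resistant libraries. With oxamate in parental cells, 1 of the 38 regions of the 10 genes called in at least 3 of the 6 libraries was lost in this way, beside 3.81% of all such regions. Its peaks were weak, with fold enrichment from 3.09 to 3.79 and ranks between 46.8% and 77.2% from the top. Inside PPARGC1A, 2008 bp downstream of the distal start, chr4:24470355-24471440 was called in 1 of 3 untreated parental, 0 of 3 treated parental, 0 of 3 untreated resistant and 3 of 3 treated resistant libraries. With oxamate in resistant cells, 1 of 39 regions was gained, beside 0.511% of all. In the 3 treated resistant libraries its peaks were 128, 147 and 336 bp long and ranked between 83.3% and 96.7%, and the 1 untreated parental peak was 894 bp long and ranked at 63.0%. Both regions were called in 3 treated resistant and 0 treated parental libraries, 2 of 39 beside 5.82% of all. Between the untreated groups, 0 of 38 regions were gained in resistant cells, beside 1.65% of all.

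The wider pathway was read from 4 lists with 54 genes in all, chosen with earlier results of these data known. Of these genes, 53 were tested on covered bases. In resistant cells 8 of 53 were called higher and 0 lower, beside the 11.8% of all genes called higher, and 28 were higher at an unadjusted p under 0.05, beside 42.9% of all. All 8 shared the adjusted p of 0.0422 (exact permutation) with every other gene called, so that value does not single them out. On bases per Mb covered no gene of the table was called, and the same held for the 9 fits without 1 library that called 0 genes. With oxamate 0 of 53 were called (0% of all genes) and 11 were lower at an unadjusted p under 0.05, beside 15.0% of all.

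Among 12 upstream regulators and complex partners, 2 (CAB39 and FLCN) were called higher in resistant cells by exact permutation, beside 11.8% of all genes. CAB39, the scaffold that holds STK11 in its active complex, averaged 2810 ± 406 against 1674 ± 669 bp (SD, n = 6 each, adjusted p = 0.0422 by exact permutation). FLCN, a tumour suppressor that interacts with AMPK through the FNIP proteins, averaged 2076 ± 203 against 1075 ± 366 bp (adjusted p = 0.0422 by exact permutation). MAP3K7, a kinase that can phosphorylate AMPK, had a difference of 298 bp (adjusted p = 0.0904 by exact permutation). With oxamate, CAB39 differed by -713 bp and FLCN by -341 bp (adjusted p = 0.273 and 0.294 by exact permutation).

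Of 12 kinases related to AMPK, 11 were tested and 1 was called higher, beside 11.8% of all genes. MARK2, a kinase of microtubule-associated proteins, averaged 2254 ± 263 against 1451 ± 199 bp (adjusted p = 0.0422 by exact permutation), and BRSK2 and SIK3 had differences of 1414 and 1422 bp (adjusted p = 0.0608 and 0.0829 by exact permutation). NUAK2 and MARK3 differed by -427 and -1152 bp with oxamate (adjusted p = 0.277 and 0.278 by exact permutation).

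Among 18 substrates and effectors, 3 (SREBF1, TFEB and TBC1D4) were called higher in resistant cells, beside 11.8% of all genes. SREBF1, a transcription factor of lipid synthesis that AMPK inhibits, averaged 6590 ± 1123 against 4581 ± 1344 bp, and TFEB, a regulator of lysosome genes, averaged 3977 ± 735 against 2198 ± 649 bp. TBC1D4, which controls glucose transporter traffic, averaged 1441 ± 258 against 1140 ± 72.8 bp, and all 3 had an adjusted p of 0.0422 by exact permutation. SREBF1 and ACACA, the carboxylase that AMPK phosphorylates, differed by -1783 and -1319 bp with oxamate (adjusted p = 0.273 for both by exact permutation).

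Among 12 partners of PGC-1α and genes of the mitochondrial programme, 2 (PPRC1 and KAT2A) were called higher, beside 11.8% of all genes. PPRC1, a coactivator related to PGC-1α, averaged 4504 ± 428 against 3308 ± 564 bp, and KAT2A, an acetyltransferase that modifies PGC-1α, averaged 1723 ± 240 against 1150 ± 431 bp (adjusted p = 0.0422 for both by exact permutation). ESRRA, a nuclear receptor partner of PGC-1α, had a difference of 792 bp (adjusted p = 0.0527 by exact permutation). SIRT1 and KAT2A differed by -706 and -402 bp with oxamate (adjusted p = 0.299 and 0.308 by exact permutation).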

How the data were processed

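ATAC-seq had been run on 12 libraries, 3 in each of 4 groups given by the titles. The authors aligned to hg38 with Bowtie2 2.1.0, kept nuclear fragments that were placed once and seen once, and ran MACS2 in broad mode (version not given in the sources used here) on every library by itself. The deposited lists give positions, a score, the fold enrichment, and the −log10 of the p-value and q-value, each relative to its own library. The study tested read counts in peaks, which were not used here. Only chromosomes 1 to 22 and X entered. Covered bases and best-peak rank were tested by two-sided exact permutation within strata (400 assignments, smallest p 0.005), merged regions called in 5 to 7 libraries by Fisher's exact test, both with Benjamini-Hochberg adjustment over all features (Python 3.11.15, numpy 2.4.6, scipy 1.17.1, pandas 2.3.3), and checked on simulated data. All 10 genes were named. Named regions were those over starts or gene ends, in 12 libraries, with a Fisher p under 0.05, or in 3 of 3 and 0 of 3 libraries, and the STK11 region with the smallest p was named after its value was seen. Of each pathway list, up to 3 genes with the smallest phenotype p and up to 2 with the smallest treatment p were named. The members and lists were chosen with earlier results of these data known. Replicate numbers were not used to pair libraries in the main tests (correlations of deviations -0.173 to 0.189, 2 of 18 over 0.1). Both values over 0.1 were between untreated and treated resistant libraries, 0.135 for replicate 1 and 0.189 for replicate 2. Replicate 3 had 0.0535 there, so a shared replicate effect in resistant cells is not excluded. Promoter sequences came from RefSeq, GRCh38.p14, and exon annotation was not used here.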

Additional observations from a re-analysis of the deposited data

Results flagged for a closer look

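The rank of the best PRKAG2 peak stood out because oxamate went with a weaker rank in every parental library and a stronger rank in every resistant library, with no overlap between treated and untreated libraries of either phenotype. The difference of differences was -3.08 percentage points (p = 0.005 by exact permutation, which cannot give a smaller p here, and adjusted p = 0.851 over 14119 genes). That p is set against no treatment difference in either phenotype, and not against an equal one in both. Adjusted p lay between 0.525 and 0.993 under the alternatives. No group of 3 libraries was tested for an outlying library.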

How the results depend on the processing

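The number of the 10 genes called by phenotype on covered bases was 0 and depended on which peaks were used, as did the number over all genes. It was 4 when only peaks with -log10 q of 3 or more were kept (6400 of 15436 genes called), 3 with the same number of top peaks per list (5004 of 16328) and, chosen after seeing the data, 2 with peaks of at least 124 bp (3542 of 16617) and 1, PPARGC1A with a difference of 441 bp, within 1 kb of annotated starts (2328 of 10597). The smallest adjusted p of the 10 genes lay between 0.0293 and 0.138 over the alternatives, by exact permutation. The cause was not tested. Without single libraries the count ran from 0 to 4, the number of non-overlapping pairs of groups, 8 in all, from 8 to 15 (15 without untreated resistant replicate 2), and the number of all-or-none calls, 4 in all, from 4 to 7 (7 without treated parental replicate 2 or untreated resistant replicate 2). Leaving out a library leaves 2 in its group, so such counts are met more easily. Per Mb covered, the phenotype difference reversed for PRKAA1 (-5.33), PRKAB1 (-3.10) and CAMKK2 (-13.9 bp per Mb) and the treatment difference for PRKAA1 (3.94), PRKAB1 (8.05), PRKAB2 (10.5), PRKAG1 (8.70), CAMKK2 (7.20) and PPARGC1A (0.0631). PRKAB2 reversed within its span alone (56.7 bp) and ran from -58.1 to 12.2 bp without single libraries, with positive values of 8.00 without untreated and 12.2 without treated parental replicate 1. The treatment difference also reversed for PRKAB1 with -log10 q of 3 or more, with the same number of top peaks and within 1 kb of starts (33.2 bp each), and within the span alone (22.5) or extended by 1 kb (38.2), for PRKAB2 within the span (6.33), for PRKAG1 within the span (77.2), with 1 kb added and within 1 kb of starts (66 each), and for PPARGC1A with -log10 q of 3 or more (3.67). Without single libraries it ran from -110 to 33.8 for PRKAB1, -51.5 to 27 for PRKAB2, -164 to 69.8 for PRKAG1, -176 to 10.7 for PRKAG3 and -193 to 85.8 bp for PPARGC1A (85.8 without untreated parental replicate 2). None of these values passed the test, by exact permutation. For the 10 genes and their regions, no call by treatment, interaction, rank or presence was made under any alternative run. Over all regions, 307 of 6578 were called by phenotype with -log10 q of 3 or more, where 1 region of the 10 genes was tested. With the replicate block (smallest p 0.03125), 0 of 10 genes and 0 of 16971 genes were called by phenotype. The smallest adjusted p of the 10 genes was 0.138 by exact permutation. At that smallest p, the adjustment can call a gene only if most genes tested reach it. The counts under the block therefore cannot say whether calls depend on pairing. Peak lists give neither read counts nor the number of fragments, so weak peaks near the calling threshold limit the counts of scattered regions.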
